A study of Mus musculus with 12 samples.

Results

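The transcripts described here encode the nuclear subunits of the oxidative phosphorylation system, measured by RNA-Seq in fully grown germinal vesicle (GV)-stage mouse oocytes with a mutated or deleted Dpagt1, the gene for the enzyme that starts N-glycan synthesis. They were chosen by gene symbol alone, as the Nduf, Sdh, Uqcr, Cox4 to Cox8 and Atp5 families together with Cyc1 and Cycs, which gave 86 of the 24255 genes in the table. By complex, they comprised 37 genes of complex I, 4 of complex II, 9 of complex III, 1 for cytochrome c, 18 of complex IV and 17 of complex V. The symbol rule also takes in a few relatives and assembly proteins (Ndufa4l2, Cox7a2l, Atp5s and Atp5sl), and it places Ndufa4 with complex I although its product is now assigned to complex IV. It leaves out the complex I subunit Ndufab1, which is counted below with the assembly factors. An FPKM (fragments per kilobase of transcript, scaled for the depth of the library) of at least 1 in at least 1 library was reached by 81 of the 86, and these were tested among 11233 genes.

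Complexes I to IV pass electrons from NADH and succinate to oxygen. Complexes I, III and IV also pump protons out of the mitochondrial matrix, and complex V uses the returning protons to make ATP. Cytochrome c carries electrons from complex III to complex IV. Each complex except complex II combines subunits encoded in the mitochondrial genome with subunits made from nuclear genes and imported, so the supply of parts depends on both genomes. Fully grown oocytes are rich in mitochondria and depend on them for ATP during maturation and early cleavage, and their transcripts are stored as transcription falls silent at the end of growth. The mitochondrially encoded subunits were not analysed here.

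Each library was made from 20 pooled oocytes of 3-week-old C57BL/6 females, taken 46 h after priming with PMSG, and there were 4 groups of 3 libraries. The wild type (WT) libraries are labelled as such with no allele. The mutant (MUT) libraries came from mice with the D166G missense mutation of Dpagt1, which the somatic cells around the oocyte carry too. In the GcKO group (Dpagt1F/F Gdf9CRE/+) the Cre is expressed in oocytes from the primordial follicle stage on, and in the AmcKO group (Dpagt1F/F Amhr2CRE/+) it is expressed in granulosa cells, so that the oocytes collected there were not the cells targeted. The labels do not say which animals the oocytes of a library came from, so that p-values measure the spread between these libraries, and the same 3 WT libraries served as controls for all other groups.

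Dpagt1 itself was listed at 0 in all WT and AmcKO libraries, at 0.408 to 0.985 FPKM in MUT and at 0, 0.366 and 0 in GcKO, so these values do not check the deletion. The FPKM of all genes in a library amounted to 589617 to 611597 for the MUT libraries and 482314 to 684212 for GcKO, against 1.167e+06 to 1.226e+06 for the WT libraries and 883256 to 1.108e+06 for AmcKO. The weight of 1 fragment, estimated from low values and set to 1 in MUT replicate 2, was 2.28 to 2.66 in WT and 0.902 to 1.502 in the other 9 libraries, which makes low FPKM values coarser in WT. The 12 oocyte marker genes were all above 0 in every group, and their summed level was lower in MUT (9640 to 11103 FPKM), GcKO (8495 to 11801) and AmcKO (13002 to 14243) than in WT (16929 to 18541), without overlap. In MUT 4 of the 12 were called lower than in WT and 0 higher by limma (median -0.48 on the log2 scale). Of all tested genes 11.3% were lower and 9.46% higher there. In GcKO 3 were called lower and 0 higher (median -0.41), where 11.4% and 8.71% of all tested genes were. With the same FPKM sum in each library these medians of the markers turned to 0.50 and 0.63. The 12 granulosa and cumulus markers summed to 11.8 to 31.4 FPKM. Amh, Amhr2 and Foxl2 were at 0 in all libraries. Of the 7 granulosa markers tested, 3 (Gja1, Inha and Hsd17b1) were called higher in MUT than in WT, where 9.46% of all tested genes were. These 3 stood at 0.642 to 5.44 FPKM in MUT against 0 in every WT library. Cyp19a1 went the other way without overlap, at 8.88, 9.49 and 13.4 FPKM in MUT against 17.1, 20.1 and 15.1 FPKM in WT. The part of these marker levels in the differences below was not tested.

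Short stretches of promoter are shown for 4 members to which the results return, Cycs and Sdhd, whose transcripts were lower in MUT and GcKO, and Sdha and Atp5b, whose transcripts were higher. The windows run from 170 bases before to 30 bases after the RefSeq transcription start (build GRCm38.p6), 5′ to 3′ on the coding strand. Capitals mark matches, on either strand, to GCGCANGCG for NRF1, CCGGAAG for GABPA and AANATGGCG for YY1, factors known for their sites in respiratory gene promoters. The Cycs window (chr6:50566540-50566739, minus strand) held 1 NRF1 match, the Sdhd window (chr9:50603820-50604019, minus strand) 1 NRF1 and 1 GABPA match, the Sdha window (chr13:74350211-74350410, minus strand) 3 NRF1 matches and the Atp5b window (chr10:128083137-128083336, plus strand) 1 YY1 match just after the start.
Cycs: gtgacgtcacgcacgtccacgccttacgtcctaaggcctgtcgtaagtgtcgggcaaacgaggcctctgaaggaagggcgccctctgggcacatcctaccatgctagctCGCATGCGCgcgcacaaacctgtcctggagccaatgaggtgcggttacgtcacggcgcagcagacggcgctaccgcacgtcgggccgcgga
Sdhd: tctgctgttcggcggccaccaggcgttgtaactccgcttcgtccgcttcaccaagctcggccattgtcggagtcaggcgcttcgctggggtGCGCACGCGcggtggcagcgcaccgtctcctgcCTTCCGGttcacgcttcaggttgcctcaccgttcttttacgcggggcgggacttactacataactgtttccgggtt
Sdha: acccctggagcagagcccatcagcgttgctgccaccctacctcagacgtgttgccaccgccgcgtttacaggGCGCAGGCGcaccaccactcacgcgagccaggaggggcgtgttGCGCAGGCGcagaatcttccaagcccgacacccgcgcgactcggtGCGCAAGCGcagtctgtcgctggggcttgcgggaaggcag
Atp5b: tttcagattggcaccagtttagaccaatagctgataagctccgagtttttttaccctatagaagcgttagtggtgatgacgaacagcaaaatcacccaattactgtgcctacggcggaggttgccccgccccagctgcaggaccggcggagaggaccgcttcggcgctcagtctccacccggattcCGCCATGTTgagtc
Windows of 250 bases before to 50 after the start were at hand for 70 of the 86 members. An NRF1 match was present in 20 of them (28.6%), a GABPA match in 15 (21.4%) and a YY1 match in 9 (12.9%). In the windows of all tested genes these shares were 13.9%, 18.1% and 5.34%, and in all 27025 windows 6.47%, 9.12% and 2.51%. By direction in MUT, of the members called lower, 12 of 23 with a window held at least 1 of the 3 motifs, against 2 of 3 of those called higher and 21 of 39 of those not called. A match only states that these letters occur in the window.

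In WT oocytes the respiratory chain transcripts were among the abundant ones, but the members differed greatly from each other. In each WT library the median of the 81 tested members lay between percentiles 90.1 and 90.4 of the 11233 tested genes. The WT mean was at least 100 FPKM for 37 of the 86 and under 10 FPKM for 22. The leading 2 of each complex were Ndufa2 and Ndufa4 for complex I, Sdhd and Sdhc for complex II, Uqcrh and Uqcr10 for complex III, Cox7a2l and Cox8a for complex IV, and Atp5h and Atp5g1 for complex V. Uqcrh, the hinge protein beside cytochrome c1, stood at 1045, 920.1 and 1204 FPKM in the WT libraries, and Uqcr10, another small subunit of complex III, at 1075, 777 and 1233 FPKM. The complex I subunit Ndufa2, at 954, 749 and 1100.3 FPKM, overlapped with both. Cox7a1, Cox7b2 and Cox8b were at 0 in all 12 libraries. Ndufs5 reached at most 0.0286 FPKM, and Uqcrc1 was above 0 in 2 libraries, at 0.919 and 0.718 FPKM. Respiring cells use both genes, so such values can be failed estimates of the FPKM.

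The subunits that do the chemistry were at the low end. Core subunits were taken as those with a counterpart in the bacterial enzymes, a split made after the values had been seen. The 22 core members had a median WT mean of 16.9 FPKM and the 59 accessory members one of 105 FPKM. In complex V, Atp5a1 and Atp5b, the α and β subunits that form the catalytic head, had WT means of 14.5 and 12.6 FPKM, whereas Atp5h, the d subunit of the stalk, had 628 FPKM. In complex II, Sdhd and Sdhc, the membrane anchors, stood at 712 to 889.8 and 145 to 173 FPKM in WT, while Sdhb, the iron-sulfur protein, ranged from 2.18 to 13.5 FPKM and Sdha, the flavoprotein that oxidises succinate, from 3.01 to 5.44 FPKM. Level and transcript length were weakly related across the 81 members (Spearman's rho = -0.268, against -0.119 across 11101 genes with a length), a description only, since FPKM divides by length.

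**Figure D1:**
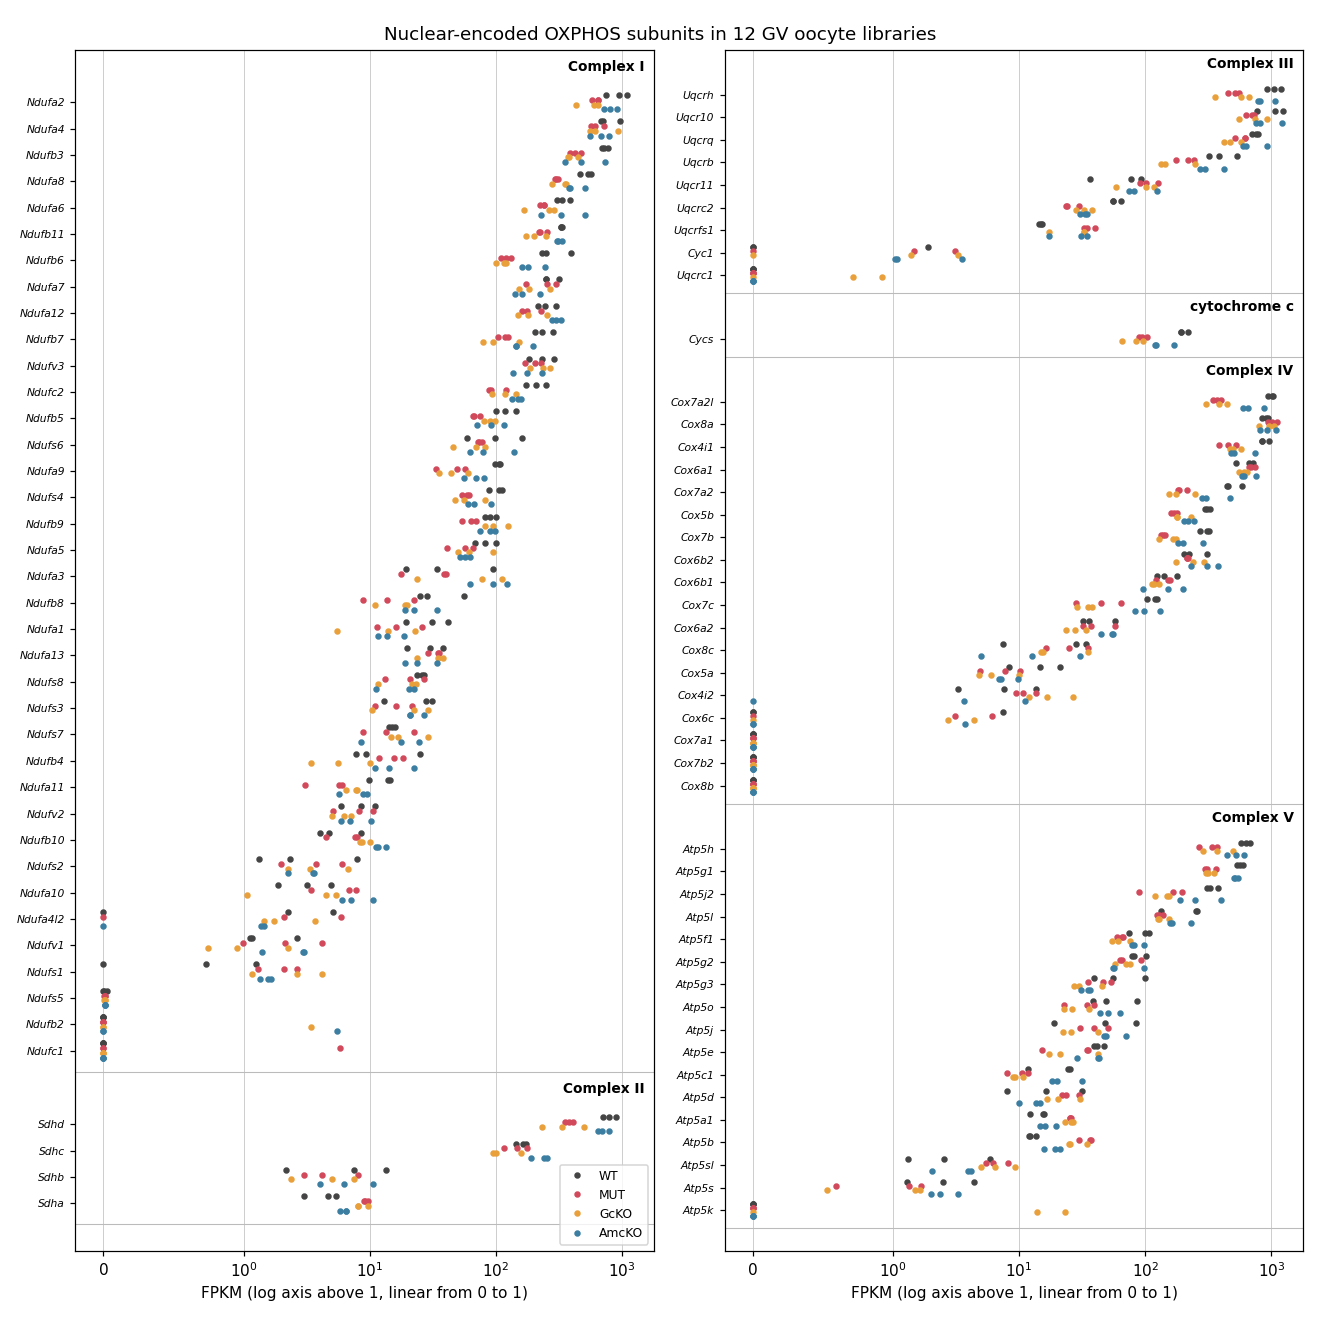
FPKM of each of the 86 members in every library, on an axis that is logarithmic above 1 and linear from 0 to 1, with 3 points per group and genes ordered within a complex by their WT mean. Levels differ by orders of magnitude within each complex, and for genes such as Cox7a2l, Sdhd and Uqcrh the MUT and GcKO points lie to the left of all WT points.

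Several subunits of complexes IV and V exist as isoforms from separate genes, and in these oocytes the widely expressed form usually dominated. Cox4i1 stood at 840.2 to 960.3 FPKM in WT and Cox4i2, known as the lung and hypoxia form, at 3.25 to 13.6 FPKM. Cox6a1 stood at 529.7 to 718 FPKM and the heart and muscle form Cox6a2 at 32.0 to 57.3 FPKM. Cox7a2 had 442 to 585 FPKM with the muscle form Cox7a1 at 0, and Cox8a had 841 to 938 FPKM with Cox8b at 0 and Cox8c at 7.50 to 33.8 FPKM. Cox7b, at 274 to 320.1 FPKM, likewise had its partner Cox7b2 at 0. The exception was Cox6b. Cox6b2, known as the testis form, was at 205 to 308 FPKM in WT against 124 to 179 FPKM for Cox6b1, and it exceeded Cox6b1 in 12 of 12 libraries, with a ratio of 1.24 to 3.21. Among the 3 genes that encode the same mature c subunit of the complex V rotor, Atp5g1 stood at 538 to 597 FPKM, Atp5g2 at 78.3 to 102 FPKM and Atp5g3 at 39.4 to 100.3 FPKM, the last 2 overlapping.

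**Figure D2:**
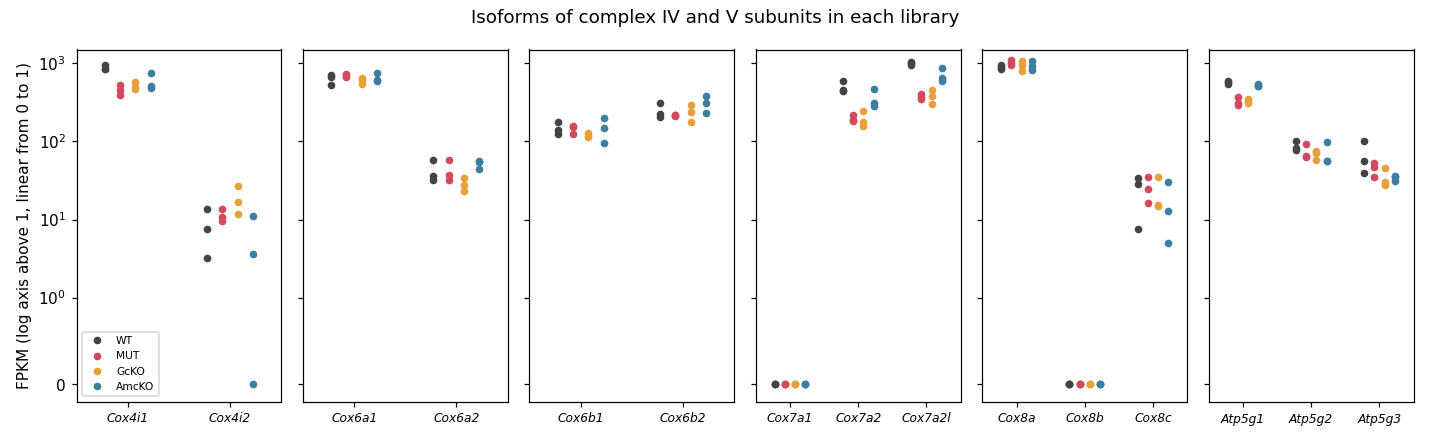
FPKM of isoform sets in every library (axis logarithmic above 1), with 3 points per group. Cox6b2 lies above Cox6b1 in each library, whereas Cox4i1, Cox6a1, Cox7a2 and Cox8a lie above their tissue-restricted partners, and in this plot only Cox4i1, Cox7a2, Cox7a2l and Atp5g1 show MUT and GcKO points below all WT points in both groups.

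In MUT oocytes the respiratory chain transcripts changed unevenly. As deposited, 27 of the 81 tested members (33.3%) were called lower than in WT at an adjusted p under 0.05 (limma on log2(FPKM + 1), Benjamini-Hochberg over all genes), where 11.3% of all tested genes were, and 4 members (4.94%) were called higher, where 9.46% of all tested genes were. The median log2 fold change of the members was -0.43, against 0.12 for all genes tested. The 27 comprised 12 complex I, 1 complex II, 3 complex III, 6 complex IV and 4 complex V genes and Cycs, and the 4 higher ones 1 complex II, 1 complex III and 2 complex V genes. GcKO oocytes gave the same counts against the same WT libraries, with 27 members lower (33.3%, against 11.4% of all genes) and 4 higher (4.94%, against 8.71%), and a median of -0.48 against 0.12 for all genes. The medians of the members on the deposited scale were close to those of the oocyte markers above. Many members are short, and of the 52 under 1000 nt 18 were called lower in each group (34.6%), where 20.3% of all 1390 tested genes of that length were in MUT and 19.8% in GcKO. The medians were -0.52 and -0.59 for these members and -0.24 and -0.29 for all such genes. Of the 29 longer members 9 were lower in each group (31.0%), where 9.96% and 10.2% of all longer genes were. In GcKO the lower ones were 9 complex I, 1 complex II, 4 complex III, 6 complex IV and 6 complex V genes and Cycs. Each library pooled the same number of oocytes (20), and FPKM, being relative to the library, does not give the amount of RNA per oocyte.

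The direction of the whole group depended on how the libraries were scaled. The FPKM of the 86 members amounted to 11443 to 11912 for the MUT libraries and 9557 to 13469 for GcKO, while WT had 16652 to 19485 and AmcKO had 13687 to 18179, so that the MUT and GcKO sums lay below every WT sum. As a share of all FPKM in the library, however, the members took 1.87 to 1.97% for the MUT libraries and 1.88 to 1.98% for GcKO, while WT had 1.43 to 1.59% and AmcKO had 1.42 to 1.64%, so that the MUT and GcKO shares lay above every WT share. With each library scaled to the same FPKM sum, 1 member was called lower and 28 higher in MUT, where 2.23% of all genes were lower and 41.3% higher, and 2 lower and 32 higher in GcKO, where 2.14% and 42.4% were. The share of members called higher on this scale, 34.6% in MUT and 39.5% in GcKO, was thus somewhat below that of all genes. That scaling also moved the median log2 fold change of all genes to 0.71 in MUT and 0.74 in GcKO, and relative to it the median of the members was -0.24 and -0.26, compared with -0.55 and -0.60 relative to all genes as deposited. With quantile normalization, 10 members were lower and 10 higher in MUT (where 6.41% and 6.7% of all genes were), and 7 lower and 9 higher in GcKO (where 5.92% and 6.15% of all genes were), with medians relative to all genes of -0.04 and 0.06. Of the members called lower as deposited, 15 of 27 in MUT and 10 of 27 in GcKO kept a negative sign with the same FPKM sum, and 22 and 18 did with quantile normalization. Some were called in the opposite direction with the same FPKM sum, namely Ndufa2 (0.43, limma adjusted p = 0.0104) and Ndufb11 (0.48, limma adjusted p = 0.0123) in MUT, and Atp5f1 (0.48), Cox5b (0.35), Ndufa8 (0.38) and Uqcrq (0.42) in GcKO, with limma adjusted p from 0.0089 to 0.0235. The lower calls that held with quantile normalization were those of Cox7a2, Cox7a2l, Cox7c, Cycs, Atp5c1, Ndufa9 and Ndufb6 in both groups and of Cox7b, Uqcrc2 and Ndufa11 in MUT. The calls below are given on the deposited scale.

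**Figure D3:**
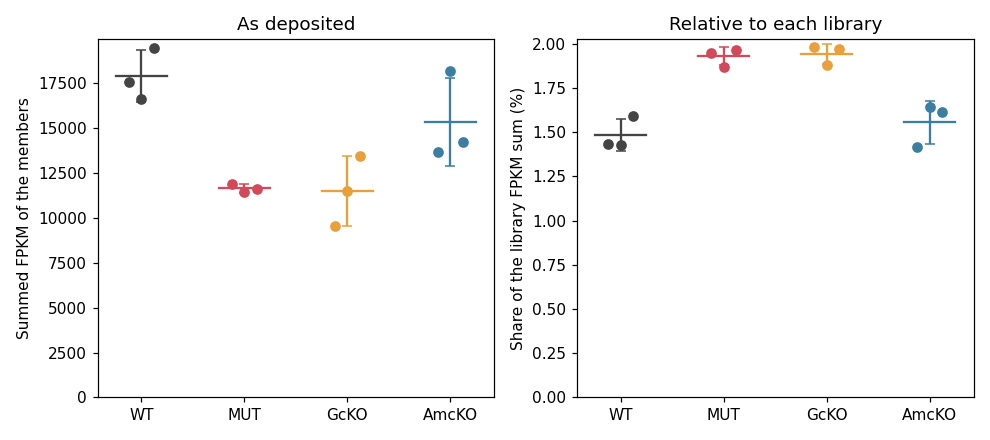
Left, summed FPKM of the 86 members in each library; right, the same sum as a percentage of all FPKM in that library; points are libraries, the horizontal bar is the group mean and the error bar the SD (n = 3). MUT and GcKO lie below WT on the left (at most 13469 against at least 16652) and above WT on the right (at least 1.87% against at most 1.59%).

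Apart from Atp5k, the members called higher were core subunits of low abundance with a direct part in catalysis. Atp5b, which carries the catalytic sites of ATP synthase, stood at 13.5, 12.03 and 12.2 FPKM in WT, at 36.6, 37.3 and 30.01 FPKM in MUT, at 25.02, 34.6 and 25.4 FPKM in GcKO and at 19.2, 15.8 and 21.1 FPKM in AmcKO. Every library of the other groups lay above all WT libraries. The log2 fold change was 1.39 (SE 0.19, limma adjusted p = 0.000319) in MUT and 1.10 (SE 0.19, limma adjusted p = 0.00145) in GcKO. Atp5a1, its partner in the catalytic head, stood at 15.9, 12.2 and 15.4 FPKM in WT, at 25.2, 25.8 and 25.3 FPKM in MUT, at 26.6, 26.0 and 23.0 FPKM in GcKO and at 14.7, 16.1 and 19.8 FPKM in AmcKO. The MUT and GcKO libraries again lay above all WT libraries, with log2 fold changes of 0.78 (SE 0.18, limma adjusted p = 0.00859) and 0.77 (SE 0.18, limma adjusted p = 0.00952), while AmcKO overlapped with WT. Exons of Atp5a1 overlap those of Haus1 on the other strand, and whether the counting used strand is not given in the sources used here.

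Sdha showed the same direction at a lower level. It stood at 3.01, 5.44 and 4.67 FPKM in WT, at 9.14, 9.73 and 8.98 FPKM in MUT, at 9.63, 8.08 and 8.07 FPKM in GcKO and at 6.52, 5.80 and 6.52 FPKM in AmcKO, without overlap between WT and any other group. The log2 fold change was 0.96 (SE 0.23, limma adjusted p = 0.0106) in MUT and 0.86 (SE 0.23, limma adjusted p = 0.019) in GcKO, and the GcKO call was lost without GcKO replicate 1 (adjusted p = 0.0639). Uqcrfs1, the Rieske iron-sulfur protein that passes electrons on within complex III, stood at 14.99, 15.2 and 14.5 FPKM in WT, at 34.6, 33.0 and 39.7 FPKM in MUT, at 32.6, 33.0 and 17.4 FPKM in GcKO and at 30.8, 17.4 and 34.5 FPKM in AmcKO. It was called higher in MUT (log2 fold change 1.20, SE 0.27, limma adjusted p = 0.00703) but not in GcKO, where 1 library lay near WT (0.79, SE 0.27, limma adjusted p = 0.0555). The 4 calls in MUT also held with quantile normalization. They held with the same FPKM sum too, but on that scale 41.3% of all genes were called higher in MUT and 42.4% in GcKO. A call upwards could thus hardly be lost there, so that scale does not test these calls. In GcKO both scalings kept the calls of Atp5a1 and Atp5b, while Sdha was not called with quantile normalization (limma adjusted p = 0.0695).

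The remaining call upwards in GcKO was Atp5k, the e subunit at the base of complex V. It was listed at 0 in every WT, MUT and AmcKO library and in GcKO replicate 1, and at 13.9 and 23.1 FPKM in the other two GcKO libraries. The call (limma adjusted p = 0.024) was lost on leaving out any WT library, GcKO replicate 2 or GcKO replicate 3, with the adjusted p rising to at most 0.126, and no fold change is given against a group at 0.

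**Figure D4:**
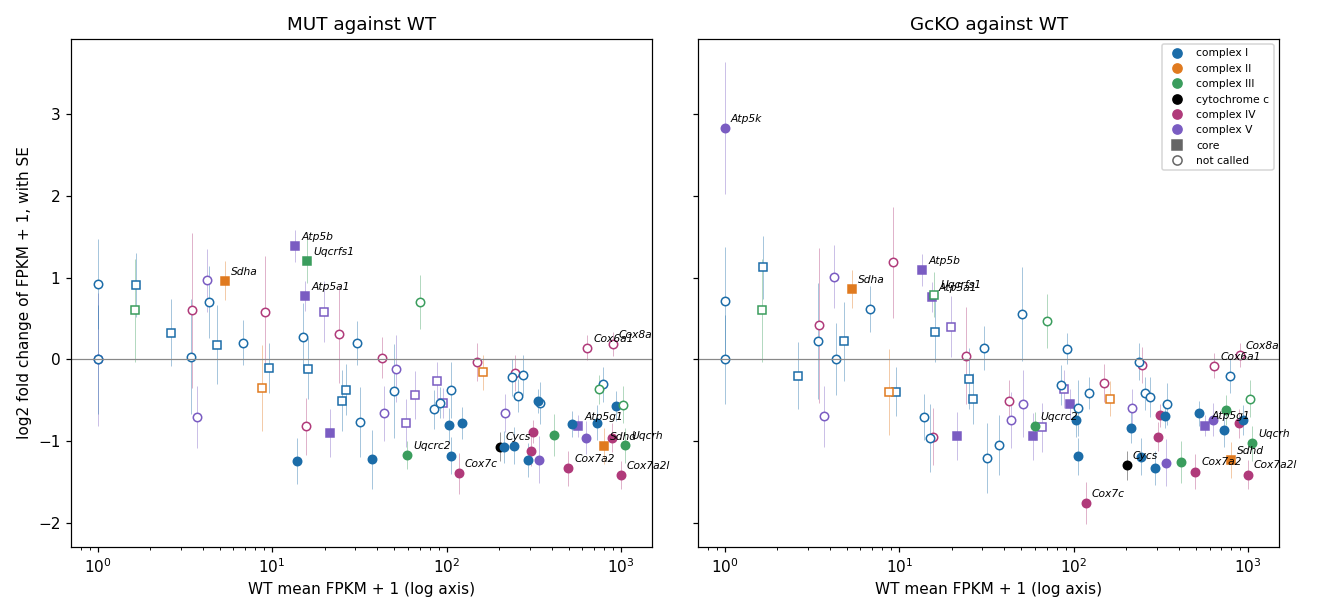
Log2 fold change of FPKM + 1 with its SE for the 81 tested members against the WT mean (log axis), MUT on the left and GcKO on the right; colours give the complex, squares core subunits, filled symbols adjusted p under 0.05. The called members below 0 lie mostly at high WT levels, and those above 0 at 4.37 to 14.9 FPKM in MUT.

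Among the members of complex IV called lower, those of the COX7 family had the most negative fold changes. Cox7a2l, a relative of Cox7a2, was the leading complex IV transcript in WT at 942, 1032 and 1004 FPKM. It stood at 398, 347 and 369 FPKM in MUT, at 304, 382 and 449 FPKM in GcKO and at 648, 869.9 and 595 FPKM in AmcKO. All MUT and GcKO libraries lay below all AmcKO libraries, and these below all WT libraries. The log2 fold change was -1.42 (SE 0.17, limma adjusted p = 0.000148) in MUT and -1.41 (SE 0.17, limma adjusted p = 0.000162) in GcKO. It was the only member called lower in both groups as deposited, with quantile normalization (-0.55 and -0.49) and with the same FPKM sum (-0.42 and -0.37), which are smaller in size by more than 1.5 times.

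Cox7a2, the widely expressed isoform of the subunit that Cox7a2l resembles, stood at 456, 442 and 585 FPKM in WT, at 215, 186 and 183 FPKM in MUT and at 156, 175 and 247 FPKM in GcKO. Neither group overlapped with WT (log2 fold changes -1.33 and -1.37). Cox7b fell by 1.12 and 0.95 on the log2 scale, with 133 to 144 FPKM in MUT and 129.8 to 175 FPKM in GcKO against 274 to 320.1 FPKM in WT, but with the same FPKM sum it was at -0.13 and 0.09 and not called. Cox7c, another small subunit wrapped around the catalytic core, stood at 119, 125 and 104 FPKM in WT, at 64.3, 44.9 and 28.3 FPKM in MUT and at 35.2, 37.7 and 28.7 FPKM in GcKO. In MUT its log2 fold change was -1.39 (SE 0.26, limma adjusted p = 0.00188), and in GcKO it was -1.75 (SE 0.26, limma adjusted p = 0.000428), the latter also called with the same FPKM sum (-0.73). Cox4i1 and Cox5b, whose products bind the core early in assembly, were likewise called lower in both groups, with log2 fold changes of -0.96 and -0.88 in MUT and -0.78 and -0.68 in GcKO, and with the same FPKM sum both turned above 0 (0.04 and 0.11 in MUT, 0.26 and 0.35 in GcKO), where Cox5b was called higher in GcKO (limma adjusted p = 0.0235).

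Other subunits of complex IV did not follow. Cox8a stood at 904, 841 and 938 FPKM in WT, at 1017, 939 and 1107 FPKM in MUT, at 792, 958 and 1053 FPKM in GcKO and at 809, 931 and 1080.4 FPKM in AmcKO. Its log2 fold change was 0.19 (SE 0.15, limma adjusted p = 0.406) in MUT and 0.05 (SE 0.15, limma adjusted p = 0.846) in GcKO. Cox6a1, with 665 to 737 FPKM in MUT and 550.5 to 639.5 FPKM in GcKO beside 529.7 to 718 FPKM in WT, had log2 fold changes of 0.14 and -0.08, neither called. Cox6b1 and Cox6b2 were not called in either group (-0.03 and -0.16 in MUT, -0.29 and -0.07 in GcKO). With the same FPKM sum, Cox8a and Cox6a1 were called higher in both groups, where 41.3% of all genes in MUT and 42.4% in GcKO were. That scaling divides a whole library by 1 factor and leaves the ratio of 2 genes as it is. It therefore does not test how Cox8a and Cox6a1 differ from Cox7a2l. Within a library, Cox8a exceeded Cox7a2 by a ratio of 4.73 to 6.04 for the MUT libraries and 4.27 to 5.46 for GcKO, against 1.60 to 1.98 in WT and 1.98 to 3.83 in AmcKO, a pair chosen after the values were seen and not tested.

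Cytochrome c was lower in both groups. Cycs stood at 191, 194 and 218 FPKM in WT, at 89.9, 93.5 and 103 FPKM in MUT, at 65.6, 85.0 and 95.7 FPKM in GcKO and at 121, 171 and 121 FPKM in AmcKO. No library of another group reached the WT range, and the log2 fold change was -1.06 (SE 0.18, limma adjusted p = 0.00109) in MUT and -1.29 (SE 0.18, limma adjusted p = 0.000303) in GcKO. The call also held with quantile normalization but not with the same FPKM sum (-0.07 and -0.26). Cycs and some other members have processed pseudogenes with similar sequence, and how shared reads were assigned is not given in the sources used here.

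In complex III, Uqcrh fell to 516, 455 and 556 FPKM in MUT and to 357, 576 and 664 FPKM in GcKO, from at least 920.1 FPKM in each WT library (log2 fold changes -1.05 and -1.03, limma adjusted p = 0.00369 and 0.00418). Uqcrc2, a structural subunit on the matrix side, was at 55.9, 55.6 and 64.4 FPKM in WT, at 29.8, 23.9 and 23.4 FPKM in MUT, at 28.5, 33.0 and 37.6 FPKM in GcKO and at 34.5, 33.2 and 30.5 FPKM in AmcKO. All 9 libraries of the other groups lay below WT, and the log2 fold change was -1.16 (SE 0.17, limma adjusted p = 0.000437) in MUT and -0.81 (SE 0.17, limma adjusted p = 0.00433) in GcKO. With the same FPKM sum the values were -0.19 and 0.20, neither called, and the exons of Uqcrc2 overlap those of Pdzd9 on the other strand. Uqcrb, the ubiquinone-binding subunit, had 383, 319 and 529.7 FPKM in WT and 144, 134 and 246 FPKM in GcKO (-1.25, limma adjusted p = 0.00374), and in MUT 219.9, 175 and 245 FPKM (-0.92, limma adjusted p = 0.021, a call lost without any 1 of 5 libraries, namely each MUT library and WT replicates 4 and 6). Uqcrb was at -0.22 in GcKO and 0.07 in MUT with the same FPKM sum, neither called.

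Within complex III, Uqcrfs1 over Uqcrc2 was between 1.16 and 1.70 in MUT, 0.461 and 1.15 in GcKO and 0.523 and 1.13 in AmcKO. In WT this ratio was 0.225 to 0.274. The pair joins a member called higher in MUT with one called lower and was chosen after the values were seen. The contrast within this pair was therefore not tested. Complex II showed a like contrast between the flavoprotein and an anchor. Sdhd stood at 789, 712 and 889.8 FPKM in WT, at 354, 382 and 408 FPKM in MUT, at 231, 332 and 503 FPKM in GcKO and at 699, 783 and 648 FPKM in AmcKO. It was lower in MUT (-1.06, SE 0.22, limma adjusted p = 0.0042) and in GcKO (-1.23, SE 0.22, limma adjusted p = 0.00161), while Sdhc (-0.15 and -0.48) and Sdhb (-0.35 and -0.40) were not called. Neither Uqcrh nor Sdhd was called with the same FPKM sum or with quantile normalization.

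In complex I the calls on the deposited scale fell on subunits other than the core ones. None of its 7 core subunits, which hold the flavin and the iron-sulfur clusters, was called in either direction by limma in MUT or GcKO, and their WT values spanned 0 to 31.2 FPKM. At an unadjusted p under 0.05, the core subunit Ndufs1 alone passed in each group (log2 fold changes 0.91 and 1.13). On the scale of the same FPKM sum, Ndufs1 was called higher in both groups (limma adjusted p = 0.0109 and 0.00404) and the core subunit Ndufs7 in GcKO (limma adjusted p = 0.00826). Accessory subunits were called higher on that scale too, among them Ndufa13, Ndufb10 and Ndufv3 in both groups. Of all genes, 41.3% in MUT and 42.4% in GcKO were called higher there. No complex I member was called lower with the same FPKM sum. Ndufb6, of the membrane arm, stood at 234, 250.1 and 393 FPKM in WT, at 120.5, 111 and 133 FPKM in MUT and at 101, 120.4 and 116 FPKM in GcKO. Both groups lay below WT without overlap (-1.23, limma adjusted p = 0.00112, and -1.33, limma adjusted p = 0.000637), and the exons of Ndufb6 overlap those of Smim27 on the other strand. Ndufc2 fell from 174, 209 and 249.8 FPKM to 88.1, 91.4 and 121 FPKM in MUT (-1.07), and Ndufb7 from 206, 285 and 234 FPKM to 94.6, 79.4 and 152 FPKM in GcKO (-1.19). Neither of these 2 calls held with the same FPKM sum (-0.08 and -0.16) or with quantile normalization. Ndufa2, the leading complex I transcript, was called lower in both groups (-0.57 and -0.75), but in MUT the call was lost without any 1 of 5 libraries (WT replicates 4 and 6 and each MUT library), and in GcKO without WT replicate 6. Ndufa2 turned above 0 in both groups with the same FPKM sum and was called higher in MUT (0.43 and 0.29). Ndufa4 was not called (-0.31 and -0.20).

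In complex V a rotor and a stalk transcript were lower while those of the α and β subunits were higher. Atp5g1 stood at 597, 538 and 567 FPKM in WT, at 366, 309 and 296 FPKM in MUT, at 306, 350.3 and 315 FPKM in GcKO and at 511, 510.3 and 547 FPKM in AmcKO. It was lower on the deposited scale in MUT (-0.81, SE 0.13, limma adjusted p = 0.000854) and GcKO (-0.81, SE 0.13, limma adjusted p = 0.000866), but with the same FPKM sum (0.18 and 0.23) and with quantile normalization (0.08 and 0.15) the sign turned and it was not called. The paralogs Atp5g2 (-0.26 and -0.36) and Atp5g3 (-0.43 and -0.83) were not called. Atp5h was lower in MUT (-0.95, limma adjusted p = 0.0044) and in GcKO (-0.74, limma adjusted p = 0.0187), the GcKO call being lost without WT replicates 4 or 6 or GcKO replicates 1 or 2, and with the same FPKM sum it turned to 0.04 and 0.30, neither called. Within a library, Atp5b over Atp5g1 was between 0.09998 and 0.121 in MUT, 0.0806 and 0.0988 in GcKO and 0.0310 and 0.0385 in AmcKO, against 0.0215 to 0.0227 in WT. The 4 ranges did not overlap, for a pair again chosen after the values were seen.

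**Figure D5:**
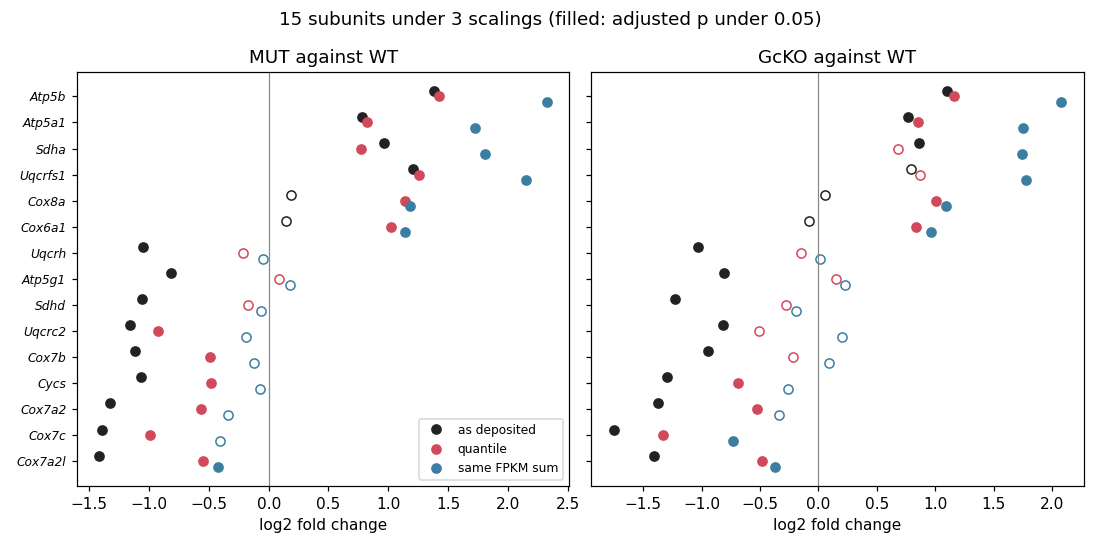
Log2 fold change of 15 members in MUT (left) and GcKO (right) against WT as deposited, with quantile normalization and with each library at the same FPKM sum; filled points have an adjusted p under 0.05. Atp5b and Atp5a1 are filled and above 0, and Cox7a2l filled and below 0, on all 3 scales in both groups, whereas Cox8a and Cox6a1 are filled on the rescaled values only. With the same FPKM sum, 41.3% of all genes were called higher in MUT and 42.4% in GcKO, so points above 0 on that scale do not test a rise.

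Taking the classes as a whole, 22 core members gave 3 calls lower and 4 higher in MUT (13.6% and 18.2%, where 11.3% and 9.46% of all genes were, median log2 fold change -0.13) and 5 lower and 3 higher in GcKO (22.7% and 13.6%, where 11.4% and 8.71% were, median -0.30). The share of core members called lower in MUT was thus near that of all genes. The 54 accessory members tested gave 22 lower (40.7%) and 0 higher in MUT (-0.54) and 20 lower (37.0%) and 1 higher in GcKO (-0.59). With quantile normalization, the medians relative to all genes were -0.03 for core and -0.02 for accessory members in MUT. In GcKO they were 0.01 and 0.09 on that scale. With the same FPKM sum they were 0.08 and -0.31 in MUT and -0.14 and -0.32 in GcKO. The contrast between the classes thus depended on the scaling, and the difference between them was not tested. The members called lower in MUT had a median WT mean of 313 FPKM and a median transcript length of 765 nt, those called higher 13.5 FPKM and 2194 nt, and those not called 36.2 FPKM and 729 nt. Across the 81 members the fold change went down with the mean level (Spearman's rho = -0.493 in MUT and -0.470 in GcKO, against -0.223 and -0.239 across 11233 genes). The fold change was little related to length (0.142 and 0.119, against 0.253 and 0.306 across 11101 genes with a length). These correlations are descriptions, since the genes share libraries and the fold change shares the values of the level.

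AmcKO oocytes gave no call among the members. limma called 0 of 81 lower, where 0.116% of all genes were, and 0 higher, where 0.0979% were. At an unadjusted p under 0.05, 23 members passed, where 15.6% of all genes did. No call arose with the same FPKM sum or quantile normalization. Median-of-ratios scaling gave none either, but it left the values nearly as deposited. The median log2 fold change was -0.16 against 0.03 for all genes. The lowest adjusted p was that of Uqcrc2 (-0.82, SE 0.17, limma adjusted p = 0.0684), which was called with a mean FPKM of at least 5 as the filter (0.0396) and with a correction for transcript length (0.0493). Without AmcKO replicate 5, Cox4i1 (-0.83) and Ndufb3 (-0.82) were called.

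GcKO and MUT were compared directly as well. limma called 0 of 81 members lower, where 0.134% of all genes were, and 0 higher, where 0.0712% were, and 3 members passed at an unadjusted p under 0.05, where 6.6% of all genes did. These were Ndufb9 (GcKO against MUT 0.66, SE 0.19, limma adjusted p = 0.281), Ndufb4 (-1.23, SE 0.42, limma adjusted p = 0.459) and Atp5k. Ndufb9 stood at 70.2, 64.0 and 54.2 FPKM in MUT and at 95.5, 81.4 and 125 FPKM in GcKO, beside 89.5, 101 and 81.6 FPKM in WT, without overlap between MUT and GcKO. Atp5k was called without GcKO replicate 1 (limma adjusted p = 5.62e-05), the GcKO library that was at 0. The median log2 fold change of the members was -0.04.

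In the comparison with AmcKO, which uses no WT library, MUT had 8 members lower (9.88%, where 5.07% of all genes were) and 1 higher, Atp5b (where 1.42% were). The lower ones were Atp5g1, Cox7a2l, Cox7c, Sdhd, Cox7a2, Atp5c1, Uqcrh and Cox7b. GcKO had 11 lower (13.6%, where 4.79% were) and 0 higher (where 0.668% were, with 32 members and 19.3% of all genes at an unadjusted p under 0.05 by limma), namely Cox7c, Atp5g1, Cox7a2l, Sdhd, Sdhc, Ndufb11, Cycs, Cox7a2, Atp5c1, Ndufb6 and Uqcrb. Both lists were chosen by their calls after the values were seen. The leading log2 fold changes in MUT were those of Cox7c (-1.22, limma adjusted p = 0.0117) and Atp5c1, the γ subunit that turns within the head (-1.11, limma adjusted p = 0.0381), and in GcKO that of Cox7c (-1.58, limma adjusted p = 0.00328). These counts depended on single libraries and on scaling. In MUT, 3, 1, 3, 4 and 2 members were called without MUT replicates 1, 2 and 3 and AmcKO replicates 4 and 5, and in GcKO 5, 5, 4, 4 and 7 without GcKO replicates 1 and 2 and AmcKO replicates 4, 5 and 6. Only Atp5g1 in MUT, and Atp5g1, Cox7a2l and Cox7c in GcKO, kept their call whichever library was left out. With the same FPKM sum, 0 members were lower and 18 higher in MUT, where 1.47% and 21.3% of all genes were, and 1 lower and 22 higher in GcKO, where 1.14% and 21.9% were.

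The proteins that build the complexes showed more lower than higher calls too. Of 47 assembly factors tested, 11 were called lower (23.4%, where 11.3% of all genes were) and 1 higher (2.13%, where 9.46% were) in MUT, with a median log2 fold change of -0.20, 12 lower (25.5%, where 11.4% were) and 2 higher (4.26%, where 8.71% were) in GcKO (-0.32), and 0 in AmcKO by limma (-0.31, with 13 at an unadjusted p under 0.05). With the same FPKM sum the medians turned to 0.57, 0.49 and -0.04, against 0.71, 0.74 and 0.21 for all genes. Timmdc1, which helps to build the membrane arm of complex I, stood at 17.3, 21.5 and 20.1 FPKM in WT and at 4.38, 4.80 and 4.46 FPKM in MUT (-1.89, limma adjusted p = 0.000106). Ndufaf4, another complex I assembly factor, was an abundant one, at 694, 607 and 695 FPKM in WT, 263, 258 and 259.5 FPKM in MUT and 192, 261 and 289.9 FPKM in GcKO. It did not overlap with WT in either group (-1.35 and -1.44). Ndufab1, the acyl carrier protein of complex I, is itself a subunit, which the symbol rule leaves out and this list counts. It fell from 61.5, 89.3 and 73.1 FPKM in WT to 12.04, 17.1 and 20.9 FPKM in GcKO (-2.11). The factor called higher in both groups was Cox18, which inserts a complex IV core subunit into the membrane, at 10.3, 14.99 and 9.97 FPKM in WT, 26.5, 23.5 and 30.6 FPKM in MUT and 20.0, 29.6 and 22.7 FPKM in GcKO. Each of these 4 kept its sign in MUT and GcKO with the same FPKM sum and with quantile normalization. Of 13 regulators of respiratory genes tested, Nrf1, Tfam and Yy1 among them, limma called 0 in MUT, GcKO or AmcKO, with 2, 1 and 0 at an unadjusted p under 0.05.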

How the data were processed

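RNA-Seq was done on 12 libraries of 20 GV-stage oocytes each, amplified by Smart-seq2. Per the labels, the authors aligned reads to mm10 with TopHat2 2.0.13 and quantified transcripts with Cufflinks 2.2.1, and they deposited 1 column of FPKM per library for 24255 genes. The labels also name Cuffnorm and Cuffdiff. FPKM holds no counts, so depth is known only relatively, and no interval for counting error is given. For 6 pairs of groups the deposited table further holds the authors' own test results (log2 ratios with p and q), which were not used. The gene annotation is not given in the sources used here.

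Members were matched by symbol. Transcript lengths came from GENCODE M21 (11101 of the 11233 tested genes, 98.8%) and promoter windows from RefSeq (GRCm38.p6, 70 of 86 members). limma 3.58.1 in R 4.3.3, with an abundance trend, was fitted on log2(FPKM + 1) of the genes that reached an FPKM of 1 in any library. A single fit with 6 contrasts used the 12 libraries together (8 residual degrees of freedom), and calls were made at a Benjamini-Hochberg adjusted p under 0.05. Fold changes on this scale understate those of low genes. Beyond the fit across all genes no set test was run, and the code was tested on simulated data. Tables and plots were made with Python 3.11.15, pandas 2.3.3, numpy 2.4.6 and matplotlib 3.10.9.

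Named were the highest 2 members of each complex in WT, up to 2 called members per complex and contrast with WT by lowest adjusted p without overlap, the members called higher or called in AmcKO or in GcKO against MUT, the isoform sets, the 4 Sdh genes, members at 0 throughout, and the leading 2 called genes of each further list. Others are named after their values were seen. The members and lists were chosen with earlier results of these data known. Alternatives were a pseudocount of 0.1, a minimum mean FPKM of 5 or none, scaling to the same FPKM sum, quantile normalization, median-of-ratios scaling, loess correction for length or abundance, only the 2 groups compared, a fold change over 2, the replicate block and leaving out each library.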

Additional observations from a re-analysis of the deposited data

How the results depend on the processing

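The counts of members called in MUT (31) and GcKO (31) against WT stayed within 1.5 times under another pseudocount or filter and the length correction. They also did with median-of-ratios scaling, but its factors were 0.9903 to 1.008. It left the values nearly as deposited and so does not test the counts. With the same FPKM sum the totals were similar but the direction turned. There 1 member was lower and 28 higher in MUT, and 2 lower and 32 higher in GcKO. As deposited, 27 were lower and 4 higher in each group. Quantile normalization gave 20 and 16, and a fold change over 2 gave 17 and 13. In GcKO, the abundance correction gave 17 and the fit of only the 2 groups compared 17. For MUT against AmcKO (9), no filter gave 3, a mean FPKM of at least 5 gave 16, the same FPKM sum 18, only the 2 groups compared 5 and a fold change over 2 gave 2. For GcKO against AmcKO (11), these settings gave 3, 20, 23, 0 and 3, and quantile normalization and the abundance correction gave 4 each. Against AmcKO the same FPKM sum gave 0 lower and 18 higher in MUT, and 1 lower and 22 higher in GcKO. For AmcKO against WT (0), a mean FPKM of at least 5 and the length correction gave 1 each. Leaving out 1 library gave 23 to 31 calls in MUT and 23 to 31 in GcKO against WT, 0 to 2 in AmcKO against WT, 0 to 1 in GcKO against MUT, 1 to 6 in MUT against AmcKO and 4 to 11 in GcKO against AmcKO, where fewer samples enter the fit. The abundance correction split the calls into 11 lower and 11 higher in MUT and 8 and 9 in GcKO.

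The median log2 fold change of the members turned sign with the same FPKM sum, to 0.48 in MUT, 0.48 in GcKO and 0.11 in AmcKO against WT, 0.00102 in GcKO against MUT, and 0.30 and 0.38 in MUT and GcKO against AmcKO. In GcKO it also turned with quantile normalization (0.0893 against WT, 0.0280 against AmcKO) and the abundance correction (0.0663 and 0.0370), and for GcKO against MUT with the length correction (0.00516) and within the range of -0.135 to 0.0453 on leaving out 1 library. Of the 27 members called lower, 12 in MUT and 17 in GcKO turned sign with the same FPKM sum, among them Cox4i1, Cox5b, Ndufa2 and Atp5h in both groups. Atp5g1 turned sign with the same FPKM sum (0.18 and 0.23 in MUT and GcKO), quantile normalization (0.0833 and 0.15) and the abundance correction (0.0150 and 0.0798), and Uqcrh in GcKO with the same FPKM sum (0.0106). The cause was not tested. The label numbers pair WT with AmcKO and MUT with GcKO. Deviations of same-numbered libraries correlated between -0.0413 and 0.0405, and those of differently numbered ones between -0.057 and 0.0706. With 3 libraries a group, these values cannot show whether same-numbered libraries were handled together. With the number as a replicate block, 0 members were called in AmcKO against WT and 0 in GcKO against MUT. WT and AmcKO carry numbers 4 to 6 and MUT and GcKO 1 to 3, so any difference in handling that follows the numbers and the genotypes cannot be told apart. Values under about 10 FPKM rest on few fragments, in WT the fewest.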
